A study of Homo sapiens with 30 samples.

Results

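The immediate early genes FOS, FOSB, FOSL1, JUN, JUNB, JUND, EGR1, EGR3, ATF3 and IER2 were followed in breast cancer cells given BMP4 (bone morphogenetic protein 4, a secreted signalling ligand). Members were all probes that the array names by 1 of these 10 symbols, which gave 14 of the 41000 probes and 10 of the 30484 names on the array. FOSL1, JUNB, ATF3 and IER2 each had 2 probes and the other genes had 1. The data were 30 two-colour oligonucleotide arrays of the established human breast cancer lines ZR-75-30, SK-BR-3, MDA-MB-361, HCC1954 and HCC1419. Each array set the RNA of BMP4-treated cells (Cy5) against that of vehicle-treated cells (Cy3) of 1 line at 30 min or at 1, 3, 6, 12 or 24 h. Each time point therefore had 5 arrays, 1 per line, and each line had 6. Per the labels, 3 cultures were pooled for each RNA, so an array is the sample and the spread given is the spread between lines. No array had the dyes swapped, and tests of a ratio against 0 therefore include whatever dye bias its probe has. Vehicle-treated cells of the same time were the only controls analysed here, with no untreated cells.

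Immediate early genes are transcribed within minutes of a stimulus from factors already present in the cell, without new protein synthesis. Growth factors, serum, stress and handling of cells all induce them, mainly through MAP kinases that act on SRF with its ternary complex factors and on CREB. The FOS family (FOS, FOSB, FOSL1) pairs with the JUN family (JUN, JUNB, JUND) to form AP-1, while EGR1 and EGR3 are zinc finger factors that bind GC-rich sites. ATF3 is a stress-induced bZIP factor of the ATF/CREB family. BMP4 signals through SMAD1/5/8 with SMAD4, and also through the ERK, JNK and p38 kinases.

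Promoters are shown for the genes that the results turn on. FOS and EGR1 are the members with the largest differences in vehicle-treated cells, and JUNB is the member with the highest ratio of BMP4 over vehicle. The RefSeq promoter table (GRCh38.p14) holds 300 bases around each start site, 250 before and 50 after, and 8 of the 10 members matched it. The windows are FOS chr14:75278578-75278877, EGR1 chr5:138465229-138465528 and JUNB chr19:12791236-12791535, all on the plus strand. Capitals mark matches on either strand to the CArG box (the SRF site), TGAGTCA (AP-1), TGACGTCA (the cyclic AMP response element), GCGTGGGCG (EGR) or GGCGCC (a GC-rich SMAD1/5 motif).
FOS: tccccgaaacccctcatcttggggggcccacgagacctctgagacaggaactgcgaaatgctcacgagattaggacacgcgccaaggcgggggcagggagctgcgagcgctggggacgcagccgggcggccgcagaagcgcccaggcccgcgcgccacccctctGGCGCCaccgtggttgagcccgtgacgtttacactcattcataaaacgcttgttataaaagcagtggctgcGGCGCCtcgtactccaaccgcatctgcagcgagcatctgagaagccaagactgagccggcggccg
EGR1: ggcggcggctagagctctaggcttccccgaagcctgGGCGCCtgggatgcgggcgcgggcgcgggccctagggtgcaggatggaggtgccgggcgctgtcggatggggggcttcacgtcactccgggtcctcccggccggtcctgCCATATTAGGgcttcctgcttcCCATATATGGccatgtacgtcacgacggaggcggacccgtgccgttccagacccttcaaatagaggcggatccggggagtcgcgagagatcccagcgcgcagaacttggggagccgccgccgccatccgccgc
JUNB: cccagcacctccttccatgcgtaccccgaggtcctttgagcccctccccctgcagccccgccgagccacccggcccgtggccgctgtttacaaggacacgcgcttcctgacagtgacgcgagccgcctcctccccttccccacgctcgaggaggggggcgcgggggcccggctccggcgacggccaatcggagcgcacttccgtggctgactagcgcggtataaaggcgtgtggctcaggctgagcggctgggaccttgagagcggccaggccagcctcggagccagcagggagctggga
EGR1 held CArG boxes at bases -105 to -96 and -83 to -74 from the start site, and was the only one of the 8 matched members with one in its window. Bases more than 250 before the start site were not searched, so a gene without a match here, such as FOS, may hold one farther upstream. Of all 35116 promoters in the table, 1.29% held a CArG box. GGCGCC stood in the FOS and EGR1 windows, against 19.2% of all promoters. TGACGTCA was found in JUND, outside the windows printed here, against 1.85% of all promoters. No member window held TGAGTCA or GCGTGGGCG, which stood in 4.95% and 0.795% of all promoters.

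Most members were well measured. Every probe of FOS, JUN, JUNB, JUND, EGR1 and IER2 exceeded background clearly (the scanner software's flag) in vehicle on all 30 arrays. The main probe of a gene is its brightest one; that of FOSB was above background on 27 arrays, that of EGR3 on 19 and that of FOSL1 on 16. Over all probes, 58.9% to 70.6% were well above background in Cy3. The FOS probe lies at chr14:74817967-74818026, that of EGR1 at chr5:137832790-137832849, that of JUND at chr19:18251756-18251814 and the main one of IER2 at chr19:13126586-13126645, in the hg18 build of the array. The number of arrays, 5 per time point, limits the precision. ID1, an established BMP target, served as a check of the treatment, and its log2 ratio lay between 0.29 and 0.56 at 30 min and between 0.65 and 1.85 at 1 h. Markers listed for luminal epithelial and HER2-type lines were KRT8, KRT18, KRT19, EPCAM, CDH1 (E-cadherin) and ERBB2 (HER2). All but CDH1 were above background on all 30 arrays, while CDH1 was on 0 of 6 SK-BR-3 arrays. Among markers of other cell types, PTPRC (leukocytes) and PDGFRB (mesenchymal cells) were above background on 0 arrays in Cy3. LYZ (leukocytes) was on 1 array and COL3A1 (a fibroblast collagen) on 5. PECAM1 (endothelium) was on 6 arrays, all of them HCC1954. The dim COL1A1 probe (another fibroblast collagen) was on 28, and the dim CD3E and VWF probes were on 30.

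JUNB, an AP-1 subunit, was the member with the highest ratio of BMP4 over vehicle. Each ratio is the loess-normalized, background-corrected signal of BMP4 over that of vehicle, on the log2 scale. At 30 min, its ratio was 0.51 in ZR-75-30, 0.45 in SK-BR-3, 0.28 in MDA-MB-361, 0.51 in HCC1954 and 0.46 in HCC1419. The 5 arrays were all above 0, with a mean of 0.44 ± 0.09 (SD, n = 5), but this did not pass the test (limma adjusted p = 0.285). Tests against 0 use 1 SE per probe from all 30 arrays (0.12 for JUNB at each time), not the SD printed beside them. At 1 h the ratio was 0.94 in ZR-75-30, 0.46 in SK-BR-3, 1.30 in MDA-MB-361, 0.66 in HCC1954 and 1.52 in HCC1419. HCC1419 and MDA-MB-361 thus exceeded 2-fold at 1 h, while SK-BR-3 lay where it had been at 30 min. The mean at 1 h was 0.98 ± 0.44 (SD, n = 5; 1.97-fold), which ranked 8th among the 41000 probes by p and passed the test (limma adjusted p = 2.83e-05). The mean difference between 1 h and 30 min, in which a constant dye bias cancels, was 0.53 ± 0.14 (SE). It did not pass the test over all probes (limma adjusted p = 0.767). In the tests against 0, without dye swaps, a response to BMP4 and a dye bias of this probe cannot be told apart.

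At 30 min, 1 of the 14 member probes was called, meaning an adjusted p under 0.05 over all 41000 probes, against 0.0805% of all probes (0.0585% higher). At 1 h, 3 of 14 were called, against 0.973% of all probes (0.612% higher). All of these were higher with BMP4. Besides JUNB, they were JUND at both times and the less bright IER2 probe at 1 h. These are bright probes, and bright probes were called higher more often at 1 h. Among other probes within 0.5 log2 units of the brightness of each, 1.19% were called higher at 1 h for JUNB. The share was 2.27% for JUND and 3.03% for the less bright IER2 probe. At 30 min it was 0.207% for JUND.

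**Figure D1:**
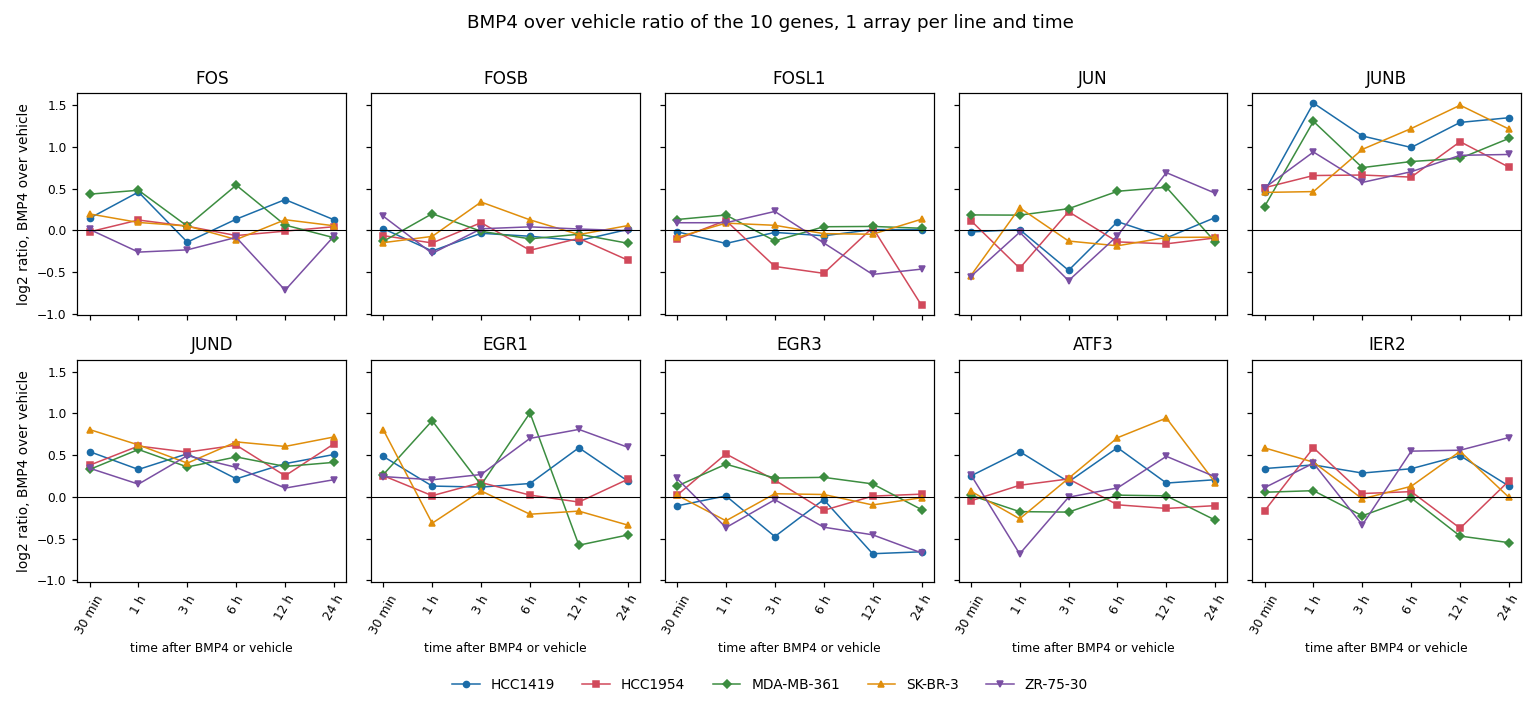
Log2 ratio of BMP4 over vehicle (vertical axis, same scale in all panels) by time (horizontal axis, evenly spaced) for the brightest probe of each of the 10 genes; each point is 1 array and each line joins the 6 arrays of 1 cell line. All 30 points of JUNB and of JUND lie above 0, whereas those of FOS, FOSB, JUN and EGR3 lie on either side of it.

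The JUNB ratio stayed high to the last time point. Its mean was 1.06 ± 0.24 at 24 h and 1.12 ± 0.27 at 12 h, after 0.87 ± 0.24 at 6 h and 0.82 ± 0.23 at 3 h (SD, n = 5 each), and each passed the test (limma adjusted p = 1.01e-05, 1.35e-05, 0.000234 and 0.000356). At 12 h the lines ran from 0.86 in MDA-MB-361 to 1.50 in SK-BR-3. Over the 30 arrays the ratio lay between 0.28 and 1.52, and 10 arrays reached 2-fold. Only 50 of the 40248 probes with a value on every array (0.124%) had a ratio above 0 on all 30, and the JUNB and JUND main probes were 2 of them. The 590 other probes within 0.5 log2 units of the brightness of this JUNB probe had a median ratio of 0.02 at 1 h, with 5th and 95th percentiles of -0.22 and 0.24.

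The 2 JUNB probes disagreed. The bright one lies at chr19:12765047-12765106 (hg18) and has a mean log2 intensity of 15.01, and the dim one lies about a kilobase upstream, at chr19:12763998-12764057, with a mean of 9.30. The ratio of the dim probe at 1 h was 0.07 in ZR-75-30, -0.35 in SK-BR-3, 0.93 in MDA-MB-361, 0.05 in HCC1954 and 0.08 in HCC1419. Only MDA-MB-361 stood clearly above 0 there. Its mean was 0.16 ± 0.47 (SD, n = 5), and it was not called at any time point, with the highest mean at 24 h (0.38 ± 0.56). In MDA-MB-361 it averaged 0.84 ± 0.31 over 6 arrays, close to the bright probe's 0.85 ± 0.35 in that line, while in ZR-75-30 the averages were -0.06 ± 0.35 for the dim and 0.75 ± 0.19 for the bright probe. Values for JUNB elsewhere in the text are those of the bright probe.

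**Figure D2:**
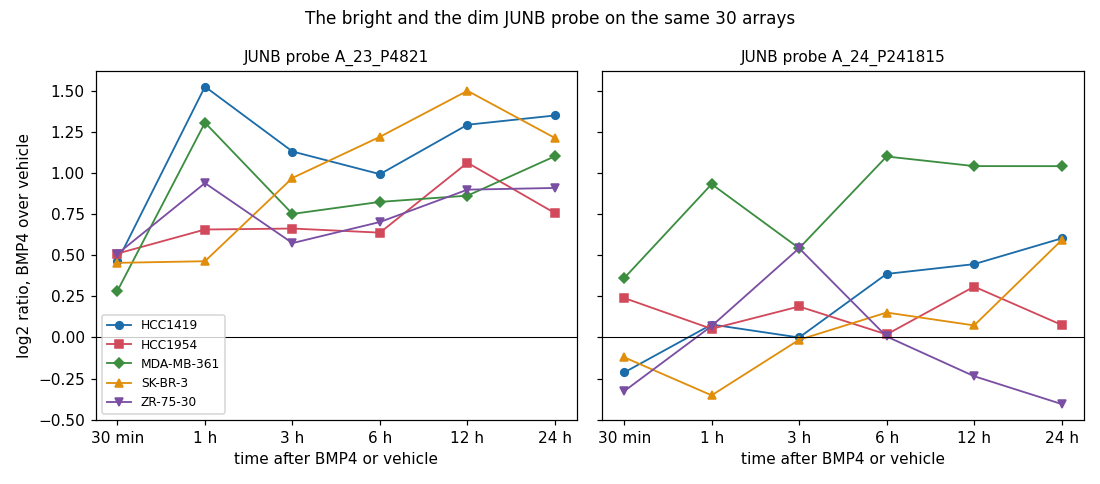
Log2 ratio of BMP4 over vehicle (vertical axis) by time (horizontal axis, evenly spaced) for the bright JUNB probe (left) and the dim one (right); each point is 1 array and each line joins the arrays of 1 cell line. The bright probe lies above 0 on all 30 arrays, and the dim one on 22, with MDA-MB-361 highest from 1 h on or level with ZR-75-30 at 3 h.

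JUND, the JUN family member that most cells transcribe without stimulation, had a small ratio of similar size at every time. At 30 min it was 0.34 in ZR-75-30, 0.81 in SK-BR-3, 0.33 in MDA-MB-361, 0.38 in HCC1954 and 0.54 in HCC1419. The mean was 0.48 ± 0.20 at 30 min (SD, n = 5; limma adjusted p = 0.00751) and 0.46 ± 0.21 at 1 h (adjusted p = 0.00292), and from 3 to 24 h it lay between 0.35 and 0.50, each called. Of 13 alternatives, the call was lost in 3 at 3 h, in 4 at 6 h, in 6 at 12 h and in 0 at 24 h. No array reached 2-fold. The 484 other probes of like brightness had a median ratio of 0.02 at 30 min. Without dye swaps, a response to BMP4 and a dye bias of this 1 probe cannot be told apart. At 30 min, the call was lost on leaving out HCC1419, HCC1954 or SK-BR-3. It was also lost there with 1 scaling factor per array and with the authors' log2 table. At 1 h, it was lost without HCC1954 and with each of 3 other normalizations (the scanner software's own log ratio gave 0.30, limma adjusted p = 0.117). The adjusted p at 1 h ran from 0.00014 to 0.369 over all alternatives.

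IER2, a serum-induced immediate early gene, has 2 adjacent probes on chromosome 19. With the less bright probe, the ratio at 1 h was 0.90 in ZR-75-30, 0.31 in SK-BR-3, 0.63 in MDA-MB-361, 0.53 in HCC1954 and 0.63 in HCC1419. All 5 lines were above 0, with a mean of 0.60 ± 0.21 (SD, n = 5; 1.51-fold) that passed the test (limma adjusted p = 0.0186). The brighter probe gave 0.37 ± 0.19 and did not (adjusted p = 0.238), although it too was above 0 in all 5 lines. Other probes of like brightness had a median of 0.06 and a 95th percentile of 0.28 at 1 h for the less bright probe. For the brighter probe these were 0.09 and 0.34, so its mean lay little above them. The call of the less bright probe was lost in 8 of 13 alternatives, which were the software's log ratio, 1 scaling factor per array (mean 1.04), the authors' log2 table, array weights, and leaving out any line but MDA-MB-361 (limma adjusted p between 0.000947 and 0.159 over all 13). At 3 h the means were 0.19 ± 0.21 and -0.05 ± 0.24, and neither probe was called after 1 h.

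FOS, the AP-1 subunit best known as an immediate early gene, did not differ detectably between BMP4 and vehicle. At 30 min its ratio was 0.01 in ZR-75-30, 0.20 in SK-BR-3, 0.43 in MDA-MB-361, -0.02 in HCC1954 and 0.14 in HCC1419. At 1 h it was -0.26 in ZR-75-30, 0.09 in SK-BR-3, 0.48 in MDA-MB-361, 0.12 in HCC1954 and 0.46 in HCC1419. At 1 h HCC1419 and MDA-MB-361 were thus the higher lines and ZR-75-30 the lowest, and the means of 0.15 ± 0.18 and 0.18 ± 0.31 (SD, n = 5) did not pass the test (limma adjusted p = 0.801 and 0.478). No FOS array reached 2-fold in either direction, and the 30 values ran from -0.72 to 0.54.

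EGR1, the zinc finger factor induced through SRF, was above 0 in all 5 lines at 30 min. Its ratio there was 0.24 in ZR-75-30, 0.80 in SK-BR-3, 0.27 in MDA-MB-361, 0.25 in HCC1954 and 0.48 in HCC1419, with a mean of 0.41 ± 0.24 (SD, n = 5) that did not pass the test (limma adjusted p = 0.654). At 1 h the lines went apart, with 0.20 in ZR-75-30, -0.32 in SK-BR-3, 0.91 in MDA-MB-361, 0.01 in HCC1954 and 0.13 in HCC1419. SK-BR-3 went from the highest to the lowest of the lines. The 1 EGR1 array at 2-fold was MDA-MB-361 at 6 h, at 1.01.

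The other members gave no call at any time. The mean ratio at 1 h was -0.11 for FOSB, 0.06 for FOSL1 (main probe), -0.00 for JUN, 0.05 for EGR3 and -0.09 for the main ATF3 probe. JUN, with 10 spots per array, was measured precisely within an array (SD over its spots 0.04 to 0.17), yet its ratio at 1 h ran from -0.46 in HCC1954 to 0.27 in SK-BR-3. ATF3 at 1 h ran from -0.68 in ZR-75-30 to 0.54 in HCC1419. Over all members, 14 of 420 probe and array pairs reached 2-fold up, 10 of them JUNB, 3 the dim JUNB probe and 1 EGR1. None reached 2-fold down, and over all probes 0.24% of pairs reached 2-fold up and 0.26% down. The median ratio over the 14 probes was 0.08 at 30 min and 0.11 at 1 h. From 3 to 24 h, JUNB and JUND were the 2 called members at each time, against 0.349%, 0.176%, 0.463% and 1.58% of all probes at 3, 6, 12 and 24 h (0.29%, 0.139%, 0.351% and 1.06% higher). Among probes of like brightness, the share called higher ran from 0.169% at 6 h to 1.53% at 24 h for JUNB. For JUND it ran from 0.413% at 6 h to 2.07% at 24 h.

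The early ratios were then set against the late ones within lines. Early means 30 min and 1 h, and late means 3 to 24 h. For this difference 0 of 14 member probes were called (limma), against 0.19% of all probes, and 5 of 14 had an unadjusted p under 0.05. The difference was -0.26 ± 0.09 (SE) for JUNB, 0.16 ± 0.07 for FOS and 0.14 ± 0.15 for EGR1. Between lines the early minus late ratio differed for 0 of 14 probes (limma; 2 at an unadjusted p under 0.05), against 0.00732% of all. Neither 1 h minus 30 min nor the change over all 6 times called a member, against 0.00244% and 0.0902% of all probes, with 1 of 14 at an unadjusted p under 0.05 in each; that was JUNB for both. The JUNB ratio in SK-BR-3 was 0.45 and 0.46 at 30 min and 1 h and between 0.97 and 1.50 later. In no other line were early and late JUNB ratios free of overlap, and the share of all probes without overlap was not counted.

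Ratios differed between lines for 6 of the 14 member probes, against 22.2% of all probes. They were FOS (limma adjusted p = 0.0211), the dim JUNB probe (0.00362), JUND (0.0193), EGR3 (0.0144) and both IER2 probes (0.0469 and 0.0125). Each slide held arrays of only 1 line, and only HCC1954 and ZR-75-30 shared a scan day. Line and slide therefore cannot be told apart in these differences. FOS averaged 0.25 ± 0.27 over the 6 MDA-MB-361 arrays and -0.23 ± 0.26 over those of ZR-75-30. EGR3 averaged -0.32 ± 0.32 in HCC1419 and 0.16 ± 0.18 in MDA-MB-361. Without MDA-MB-361, 0 of 14 were called, and with 1 scaling factor per array in place of loess 0 of 14 as well. The mean log2 ratio of 643 probes that follow NEUROG3, a gene outside the list whose pattern over the arrays was picked after values were seen, had a Pearson r over the 30 arrays of -0.62 with the main ATF3 probe, 0.55 with JUN, -0.50 with the main IER2 probe and -0.37 with JUND. Its r with FOS was -0.20, that with the bright JUNB probe -0.21 and that with the dim one 0.45. Its part in the line differences was not tested.

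Vehicle levels of most members were higher on the early arrays than on the late ones. FOS was 7.50-fold higher in vehicle at 30 min and 1 h than from 3 to 24 h, EGR1 5.50-fold, ATF3 2.94-fold, FOSB 2.91-fold, JUN 2.39-fold, EGR3 1.83-fold and IER2 1.65-fold. Levels are log2 Cy3 intensities normalized between arrays, compared for the same probe only. Of the 14 member probes, 9 were higher early and 0 lower (limma; 11 and 1 at an unadjusted p under 0.05), and of the 10 main probes 7 were higher, against 2.44% of all probes higher and 0.937% lower. The median difference over the 14 probes was 0.80, against 0.00 over all probes. FOSL1, JUNB and JUND were not called. The late EGR3 arrays were not well above background in SK-BR-3 (4 of 4), MDA-MB-361 (4 of 4) and, in part, HCC1954 (2 of 4), so its fold is a fitted value against levels near background there. These arrays measure RNA relative to total RNA, so more cells that transcribe a gene and more RNA per cell cannot be told apart.

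FOS had the smallest p of all 41000 probes for this difference. Its vehicle level at 30 min was 10.83 in ZR-75-30, 13.24 in SK-BR-3, 9.64 in MDA-MB-361, 9.99 in HCC1954 and 11.27 in HCC1419. At 1 h it was 10.50 in ZR-75-30, 12.76 in SK-BR-3, 9.19 in MDA-MB-361, 12.43 in HCC1954 and 9.15 in HCC1419. The 20 late arrays ran from 6.91 to 9.22, with a median of 8.12, and in each of the 5 lines both early arrays lay above all 4 late ones. How many of all probes separate early from late arrays in this way was not counted, for this or any other member. The difference was 2.91 ± 0.32 (SE; limma adjusted p = 0.000261), from 4.83-fold in MDA-MB-361 to 34.6-fold in SK-BR-3.

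**Figure D3:**
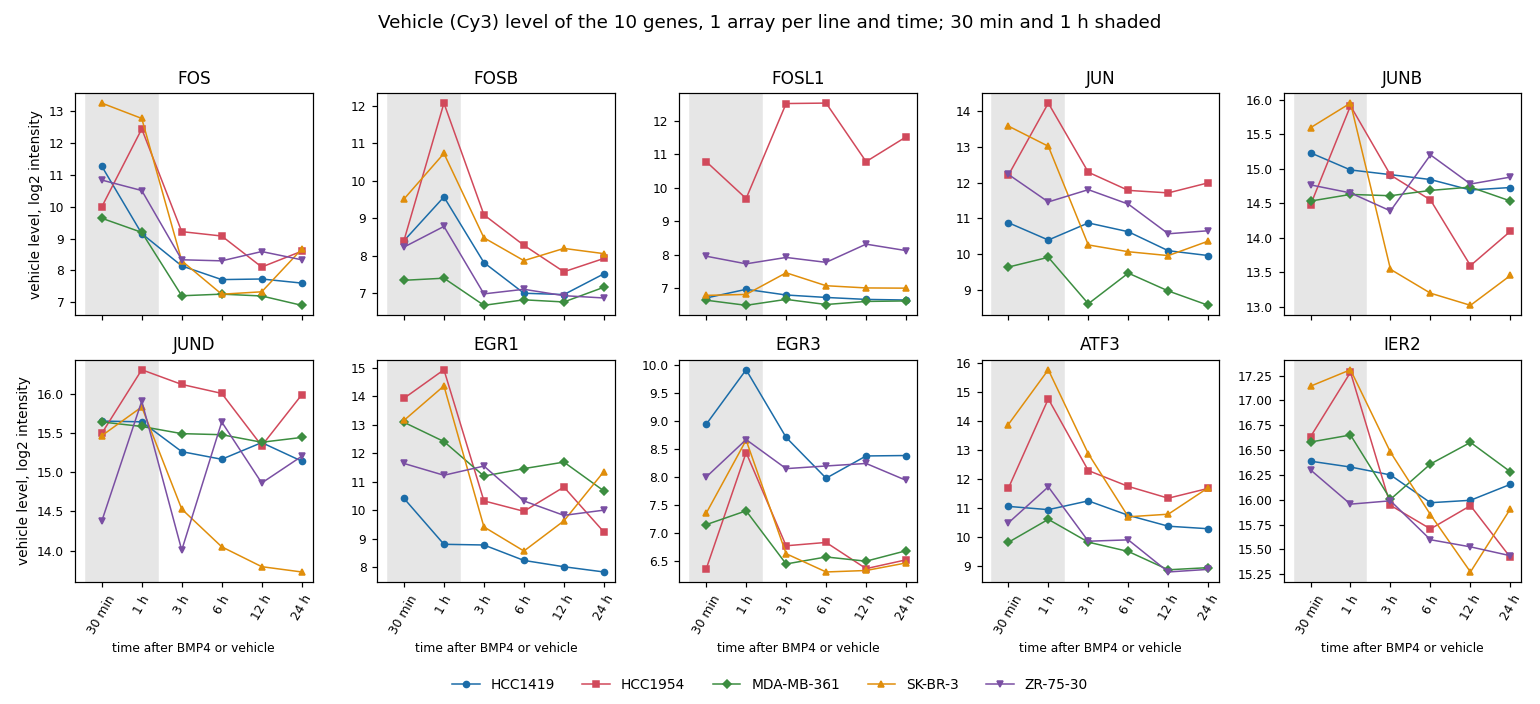
Log2 vehicle (Cy3) level (vertical axis, its own scale in each panel) by time (horizontal axis, evenly spaced) for the brightest probe of each of the 10 genes; each point is 1 array, each line joins the arrays of 1 cell line, and 30 min and 1 h are shaded. FOS lies higher in the shaded part than in the rest in all 5 lines, while FOSL1 stands high in HCC1954 at all times.

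EGR1 in vehicle at 30 min was 11.64 in ZR-75-30, 13.16 in SK-BR-3, 13.09 in MDA-MB-361, 13.94 in HCC1954 and 10.41 in HCC1419. At 1 h it was 11.23 in ZR-75-30, 14.37 in SK-BR-3, 12.41 in MDA-MB-361, 14.94 in HCC1954 and 8.80 in HCC1419. The late arrays ran from 7.82 to 11.69, and early and late did not overlap in 4 of 5 lines, ZR-75-30 being the exception. The share of all probes without such overlap was not counted. EGR1 was 20.5-fold higher early than late in HCC1954 and 16.3-fold in SK-BR-3, with an overall difference of 2.46 ± 0.40 (SE; limma adjusted p = 0.0051).

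ATF3, FOSB and EGR3 read higher at 1 h than at 30 min in most lines, without passing the test. The main ATF3 probe read 13.89 at 30 min and 15.78 at 1 h in SK-BR-3, 11.69 and 14.77 in HCC1954, 10.49 and 11.74 in ZR-75-30, 9.82 and 10.62 in MDA-MB-361, and 11.06 and 10.95 in HCC1419. FOSB read higher at 1 h in all 5 lines, with 7.35 at 30 min and 7.40 at 1 h in MDA-MB-361, the smallest step, and 8.41 and 12.07 in HCC1954, the largest. EGR3 did so too, with 7.15 and 7.40 in MDA-MB-361 and 7.35 and 8.66 in SK-BR-3, while in HCC1954 it was not well above background at 30 min. The difference between 1 h and 30 min was 1.38 ± 0.45 (SE) for ATF3, 1.33 ± 0.36 for FOSB, 1.06 ± 0.22 for EGR3 and -0.18 ± 0.53 for FOS. None of these passed the test, which called 0 of 41000 probes (limma; 4 of 14 member probes had an unadjusted p under 0.05). The change over all 6 times was called for FOS, FOSB, EGR3 and ATF3 (adjusted p = 0.0065, 0.0136, 0.0139 and 0.0414), which is 4 of 14 probes against 0.144% of all.

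JUN, the founding AP-1 subunit, differed by 1.26 ± 0.27 (SE; limma adjusted p = 0.0183). Its vehicle level in SK-BR-3 was 13.59 and 13.02 at 30 min and 1 h and between 9.96 and 10.37 later, whereas in HCC1419 early and late overlapped. IER2 differed by 0.72 ± 0.14 (adjusted p = 0.00998) with 4 of 5 lines free of overlap, a count without the share of all probes beside it. JUNB gave 0.71 ± 0.23 and was not called (adjusted p = 0.0863), and its difference varied between lines (test of that variation, limma adjusted p = 0.0218, against 1.14% of all probes called). In SK-BR-3 the JUNB vehicle level was 15.59 and 15.95 early and between 13.02 and 13.54 late, a 5.54-fold difference, while in MDA-MB-361 and ZR-75-30 the difference was -0.06 and -0.10 log2 units.

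**Figure D4:**
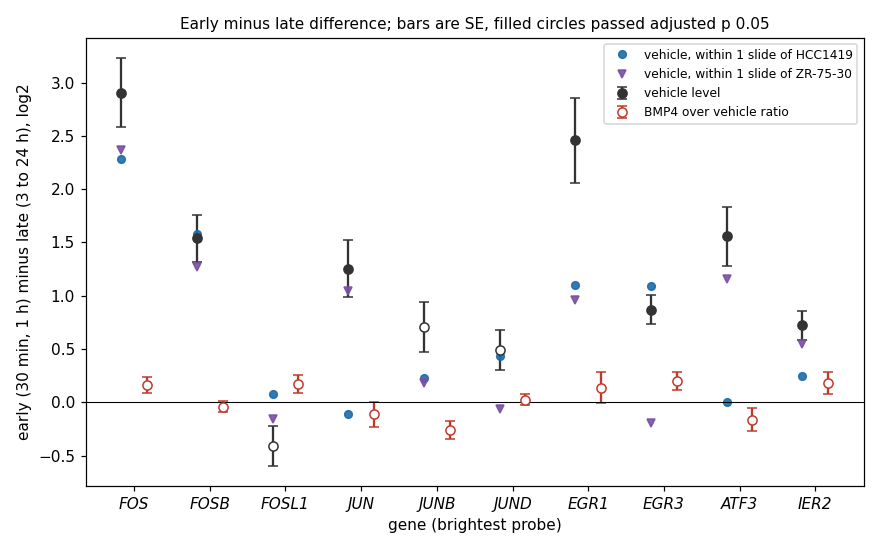
Early (30 min and 1 h) minus late (3 to 24 h) difference in log2 units (vertical axis) for the brightest probe of each gene, for the vehicle level (dark circles) and for the ratio of BMP4 over vehicle (red circles), with SE bars and filled circles for adjusted p under 0.05; small coloured points give the vehicle difference between arrays of 1 slide in HCC1419 and in ZR-75-30. The vehicle circles of FOS and EGR1 stand at 2.91 and 2.46 while no ratio circle leaves the range from -0.26 to 0.20.

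The BMP4-treated channel gave like differences. In it, the FOS difference was 3.07 and the EGR1 difference 2.60 (limma adjusted p = 4.01e-05 and 0.00236), and 9 of 14 member probes were higher early and 0 lower (limma; 11 and 0 at an unadjusted p under 0.05), against 2.5% of all probes higher and 2.04% lower. For FOS in SK-BR-3, the early over late fold was 34.6 in vehicle and 37.5 with BMP4. Both channels of an array share its slide and scan.

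In HCC1954, MDA-MB-361 and SK-BR-3 (3 of 5 lines) no early array shared a slide with a late one, so time and slide cannot be told apart within them. Scan day differed between early and late arrays in SK-BR-3 and, in part, in HCC1954, was the same for all arrays of HCC1419 and of MDA-MB-361, and alternated in ZR-75-30. Between arrays of 1 slide, FOS was still higher early, by 2.28 in HCC1419 (30 min and 1 h against 3 and 6 h) and by 2.37 in ZR-75-30 (30 min against 3 and 12 h). FOSB was higher by 1.57 and 1.27, and EGR1 by 1.105 and 0.96, in the same sets. ATF3 was higher by 1.16 in ZR-75-30 and by 0.00 in HCC1419, JUN by 1.05 and -0.11, and EGR3 by -0.20 and 1.09. With slide as a fixed block, which leaves only such within-slide differences, FOS gave 2.33 (limma adjusted p = 0.467), FOSB 1.83, EGR1 1.11, ATF3 1.00, EGR3 0.85, JUN 0.51 and IER2 0.49, and no probe of the 41000 was called; 5 of 14 member probes had an unadjusted p under 0.05. Without the cell line as a block, FOS was the only member called. With slide as a random block, FOS, FOSB and EGR3 were called. Without SK-BR-3, FOS (2.36) and EGR1 (2.07) were called. The epithelial and HER2 markers KRT8, KRT18, KRT19, CDH1, EPCAM and ERBB2 differed in vehicle between early and late by -0.20, -0.19, 0.26, 0.09, 0.16 and 0.02. None of them was called (limma adjusted p between 0.108 and 0.888). Of the 8 markers of other cell types, COL3A1 (a fibroblast collagen, above background on 5 arrays) was called, higher early by 0.20 (limma adjusted p = 0.048), and its part was not tested.

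Levels of the members also differed between lines in vehicle, for 12 of 14 probes against 73.1% of all probes. FOSL1, the FOS family member found in invasive and basal-like breast lines, was the clearest. With its main probe the 6 HCC1954 arrays ran from 9.67 to 12.52, the 6 ZR-75-30 arrays from 7.73 to 8.31, and the other lines stayed at or below 7.46. Detection above background was complete, 6 of 6 arrays, in HCC1954 and ZR-75-30, against 3 arrays of SK-BR-3, 1 of HCC1419 and 0 of MDA-MB-361. HCC1954 was at least 26.0-fold higher than MDA-MB-361, where the array's lowest signal well above background or the probe's own, whichever was higher, stood in for the level. HCC1419, MDA-MB-361 and SK-BR-3, all near background, cannot be ordered. In all these differences between lines, line and slide cannot be told apart, since each slide held only 1 line. EGR3 averaged 8.72 ± 0.67 in HCC1419 and 8.20 ± 0.26 in ZR-75-30 (SD, n = 6), against 6.79 to 6.96 in the other lines, where at most 3 of 6 arrays were above background. JUND in ZR-75-30 read 14.38, 15.91, 14.01, 15.64, 14.86 and 15.20 at 30 min and 1, 3, 6, 12 and 24 h, and its 3 lower values (30 min, 3 h and 12 h) were those of 1 slide, while the other 3 were on other slides and scanned on another day.

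A list of 57 related genes gave the wider pathway, 56 of which the array measured. At 30 min 0 of 56 were called for the ratio (limma; 1 higher and 1 lower had an unadjusted p under 0.05). At 1 h 1 was, ZFP36L1 (an mRNA decay factor), which fell by 0.43 ± 0.21 (SD, n = 5; limma adjusted p = 0.0412). At 1 h 9 of the 56 were higher and 3 lower at an unadjusted p under 0.05 (limma), against 2825 and 3053 of all 41000 probes. DUSP2, a nuclear phosphatase of MAP kinases, had a ratio of 0.80 ± 0.37 at 1 h (SD, n = 5; limma adjusted p = 0.145) and rose at 12 h (1.16 ± 0.83, adjusted p = 0.0376) and 24 h (1.102 ± 0.77, adjusted p = 0.0268). Among the other AP-1 and ATF members 0 of 10 were called at 1 h (limma; 2 higher at an unadjusted p under 0.05). The other EGR members and their co-repressors gave 0 of 4 (1 higher), and SRF and its ternary complex factors 0 of 6 (none). Other immediate early transcription factors gave 0 of 11 (2 higher, 1 lower) and other immediate early genes 0 of 16 (3 higher). The decay and phosphatase genes gave 1 of 9 (1 higher, 2 lower). In vehicle, 10 of the 56 were higher early and 0 lower (limma; 20 and 4 at an unadjusted p under 0.05), against 2.44% of all probes higher and 0.937% lower. They were EGR2 (3.58-fold), CTGF (3.44-fold), NR4A1 (2.99-fold), DUSP1 (2.88-fold), KLF2 (2.52-fold), KLF6 (2.13-fold), CYR61 (1.998-fold), GADD45B (1.75-fold), EDN1 (1.64-fold) and CSRNP1 (1.47-fold). By group these were 4 of 11 other transcription factors, 4 of 16 other immediate early genes, 1 of 4 EGR genes and co-repressors, 1 of 9 decay and phosphatase genes, and none of the 10 AP-1 and ATF members or of the 6 SRF genes. EGR2 was above background on 13 of the 30 arrays and CTGF on 22. The list's median early minus late difference was 0.18.

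Members correlated with each other more in level than in ratio. Over the 45 pairs of main probes, Pearson r across the 30 arrays had a median of 0.39 for vehicle levels (16 pairs above 0.5, highest 0.88) and 0.02 for ratios (0 pairs above 0.5, highest 0.44). The points share lines, slides and scan days, so these values are descriptions. Pairs of other probes were not set beside them, so the correlation in level is not shown to be particular to the members. The gene most like JUNB in ratio, among 18747 other probes with a gene symbol and signal, was ID4 (r = 0.71), followed by TDRKH and OVOL1 (both 0.68). The nearest to FOS were ZNF473 (0.78), ULBP2 (0.75) and CUL1 (0.73), and the nearest to EGR1 were DTNBP1, PODXL and ETS2 (0.65, 0.64 and 0.63). For JUND they were EHBP1, ZNF28 and RPL37 (0.76, 0.76 and 0.75).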

How the data were processed

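RNA of BMP4-treated (Cy5) and vehicle-treated (Cy3) cells, each pooled by the authors from 3 cultures, was measured on two-colour Agilent arrays of 45015 spots, 1639 of them control spots. The authors deposited scanner output with spot intensity and a log10 ratio per spot, made with Agilent Feature Extraction 9.5.1.1 per the file headers on the hg18 build, and a table of log2 ratios that correlate with the scanner values (r at least 0.9998, column medians of 0). Spot intensities were background-corrected (normexp, offset 50), loess-normalized within arrays with control spots at weight 0, averaged per probe, and scaled between arrays by Aquantile for vehicle levels (R 4.3.3, limma 3.58.1). Ratios were tested against 0 per time point, and time and line effects with the line as a block, by limma with Benjamini-Hochberg adjustment over 41000 probes. Replicate numbers are cell lines. They pair the arrays by line. Deviations from time means correlated within lines (median r 0.87 for vehicle levels and 0.29 for ratios), where arrays also share slides in part. Between lines the medians were -0.23 and -0.11. Subtracting a mean over so few lines pulls these below 0 in any data, so they say nothing about the pairing. All probes of the 10 genes are named; other genes come from the pathway list, the marker list or the 3 highest correlations with a member's ratio over probes well above background on at least 15 arrays. Members and lists were chosen with earlier results of these data known. On simulated data, 87% of log2 changes of 0.5 were called for the ratio at 1 h among 40248 probes and 80% for vehicle levels between early and late times. The simulated noise was independent between arrays and probes, without effects of slide or scan day. These shares therefore may not hold for the real arrays. Alternatives were the normalization, a filter on dim probes, array weights, blocks of line or scan day, and leaving out each line. Slide blocks and the BMP4 channel were chosen after seeing the data. P-values of ratios against 0 rest on the spread between these lines, pooled over all time points. Those of the other main tests rest on the spread left after fitting time and line.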

Additional observations from a re-analysis of the deposited data

Results flagged for a closer look

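Within groups of 5 arrays, 1 array stood apart from the other 4 (Dixon's test) in 3 of 60 groups of ratios and 3 of 60 groups of vehicle levels. Chance flags about 1 in 20 groups. The JUNB ratio at 30 min of MDA-MB-361 was 0.28, below the 0.45 to 0.51 of the rest. The FOSL1 ratio was -0.16 in HCC1419 at 1 h and -0.53 in ZR-75-30 at 12 h. The FOSL1 vehicle level was 12.5 in HCC1954 at 3 h and 12.5 at 6 h, the line in which FOSL1 was high throughout. The JUND vehicle level in ZR-75-30 at 30 min was 14.4.

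Ratios that differed between the 5 lines by limma's test of the line effect were those of FOS (adjusted p = 0.0211), the dim JUNB probe (0.00362), JUND (0.0193), EGR3 (0.0144), the brighter IER2 probe (0.0469) and the less bright one (0.0125). Line and slide cannot be told apart in these. The early minus late difference in vehicle differed between lines for JUNB (limma adjusted p = 0.0218), with SK-BR-3 at 2.47 and the other lines between -0.10 and 0.91.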

How the results depend on the processing

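Of 39 single member results that were called, the alternatives gave 497 values. In 385 the call stayed, in 112 it was lost, and 0 turned direction. The tests of differences between lines (6 for ratios and 12 for vehicle levels) have no direction. For them only the call could change, so the 0 covers the other results alone. The JUNB ratio was called at 1, 6, 12 and 24 h under all 13 alternatives; at 3 h the call was lost with 1 scaling factor per array (adjusted p = 0.134). At 30 min, 1 member probe was called, against 0 with 1 scaling factor per array, 0 with the authors' log2 table and 4 with array weights, and 0 to 1 when 1 line was left out. At 1 h, 3 were called, against 1 with the software's log ratio, 1 with 1 scaling factor, 1 with the authors' table, and 1 to 3 when 1 line was left out (1 without HCC1954). From 3 to 24 h there were 8 calls, against 4 with 1 scaling factor and 5 to 8 with a line left out (5 without HCC1954). With the line (replicate number) as a block, the counts at 30 min, 1 h and 3 to 24 h were 1, 3 and 10. Ratio differences between lines numbered 6, against 3, 0 and 3 under the software's log ratio, 1 scaling factor and the authors' table (the dim JUNB probe and EGR3 were called under the first and the last of these), and 0 to 7 with a line left out (3 without HCC1419, 0 without MDA-MB-361). Early minus late calls in vehicle numbered 9, against 5 with scan day as a random block, 3 with slide as a random block, 0 with slide as a fixed block, 1 with no replicate block, and 2 to 8 with a line left out (5 without HCC1954, 2 without SK-BR-3). Differences in vehicle between lines numbered 12, against 8 to 14. Over all probes, calls at 1 h numbered 399, against 27 to 1036 under the alternatives, and early minus late calls in vehicle 1385, against 0 to 1893. At 1 h, 251 probes were higher and 148 lower, against 148 and 30 with the software's log ratio, 25 and 2 with 1 scaling factor, and 94 and 17 with the authors' table. The cause of these shifts was not tested. The main FOSL1 probe was not well above background in vehicle on most arrays of HCC1419 and MDA-MB-361, nor was EGR3 on most of MDA-MB-361 and SK-BR-3, which limits their ratios there.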
